A study of Mus musculus with 9 samples.

Results

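The genes described here are 7 genes of cholesterol synthesis and its control: Srebf2, Insig1, Hmgcs1, Idi1, Sqle, Lss and Cyp51. They were taken by name from the 54532 listed genes, and all 7 were among the 11727 genes with enough signal to test. RNA was sequenced from cells labelled as B.END3, an endothelial line from mouse brain used as a model of the blood-brain barrier, in 9 libraries of 3 groups. The organism is given as mouse, while the growth protocol calls the cells rat. The 3 Ctrl libraries are labelled untreated. Cells of the Ep1 and Ep2 groups took up porfimer sodium (300 µg/mL in the medium, 90 min) and were then lit by a laser of 635 nm at 100 mW/cm2, with a light dose of 10 J/cm2 in Ep1 and 20 J/cm2 in Ep2. Porfimer sodium is a photosensitizer that generates reactive oxygen species under red light, and the treatment is called photodynamic therapy (PDT). All groups share the same line, strain (given as C57BL/6) and culture. The labels do not say whether Ctrl cells received drug without light or sham exposure, and the time from light to lysis is not given in the sources used here, so drug, light and their combination cannot be told apart. Nothing says that the replicates were separate cultures, so p-values measure the spread between these libraries.

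Cells make cholesterol from acetyl-CoA in a chain of enzymes that runs through mevalonate, isoprenoid units, squalene and lanosterol. The transcription factor SREBP2, the product of Srebf2, switches these enzymes on when membranes hold little sterol: its precursor is carried by SCAP from the endoplasmic reticulum to the Golgi, cut there, and released to the nucleus. INSIG proteins hold SCAP and the precursor back when sterol is plentiful, and Insig1 is itself a target of SREBP2. In brain endothelium, membrane cholesterol is a main component of the caveolae and of the lipid domains in which junction proteins sit.

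The defining markers of endothelium were mostly near 0 in these libraries, which goes against the label of the cells. Of 14 endothelial markers, 4 reached 1 FPKM (fragments scaled to gene length and library size, the unit of all levels here) in any library. Pecam1 lay between 0.0821 and 0.242 FPKM, Kdr was at most 0.0594 FPKM, and Emcn and Erg were listed at 0 in all 9 libraries. Of 9 epithelial markers, 4 reached 1 FPKM. Krt8 lay between 562 and 714 FPKM, Krt18 between 230.5 and 332 FPKM and Krt19 between 135 and 324 FPKM, while Epcam was at most 2.03 FPKM. Krt5 and Krt7 were listed at 0 in all 9 libraries, and Krt14, Cdh1 and Cldn4 were at most 0.177 FPKM. The summed epithelial markers were between 1029 and 1081 FPKM in Ctrl, between 937 and 1041 FPKM in Ep1, and between 1155 and 1373 FPKM in Ep2. The summed endothelial markers were 11.4 to 12.0 FPKM in Ctrl, 11.6 to 13.2 FPKM in Ep1 and 14.6 to 15.7 FPKM in Ep2. The largest part of this sum was Flt1, with means of 6.90 FPKM in Ctrl, 7.25 FPKM in Ep1 and 10.9 FPKM in Ep2. The other markers that reached 1 FPKM had lower means in Ep2 than in Ctrl. These were Egfl7 (1.65 against 2.09 FPKM), Eng (1.13 against 1.32 FPKM) and Cdh5 (0.753 against 0.857 FPKM). Fibroblast markers summed to 41.7 to 43.8 FPKM in Ctrl, 37.1 to 42.1 FPKM in Ep1 and 41.2 to 49.6 FPKM in Ep2, and the pericyte and leukocyte markers stayed under 1 FPKM. The epithelial and endothelial sums were thus higher in every Ep2 library than in every Ctrl library, and their part in the Ep2 results below was not tested. In bulk RNA, fewer cells of a type and less RNA per cell cannot be told apart. The libraries held 16240688 to 19509225 fragments on genes, and each of the 7 genes was covered by at least 657 fragments in every library.

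The promoters of 3 of these genes are shown because the 7 genes are placed together as targets or parts of the SREBP2 system. Insig1 and Srebf2 are the genes that changed against Ctrl, and Hmgcs1 is the enzyme gene whose window held the sterol motif. The stretches are from RefSeq on GRCm38.p6, plus strand, 5′ to 3′, and end before the first base that either RefSeq or the listed coordinates place in the gene. Capitals mark matches on either strand to the core of the sterol regulatory element (TCACNCCA), which SREBP binds, and to the NF-Y box (CCAAT, read as ATTGG on the other strand), bound by a frequent partner of SREBP. The first is Insig1 at chr5:28071162-28071362, the next Srebf2 at chr15:82147019-82147180, and the last Hmgcs1 at chr13:119690101-119690350.
Insig1: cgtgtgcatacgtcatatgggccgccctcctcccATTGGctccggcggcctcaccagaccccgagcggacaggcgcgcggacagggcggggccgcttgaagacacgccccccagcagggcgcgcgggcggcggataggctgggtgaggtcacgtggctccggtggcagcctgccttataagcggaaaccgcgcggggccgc
Srebf2: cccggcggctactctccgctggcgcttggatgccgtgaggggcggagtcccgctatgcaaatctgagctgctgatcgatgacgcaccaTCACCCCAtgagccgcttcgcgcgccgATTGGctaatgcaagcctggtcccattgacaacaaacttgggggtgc
Hmgcs1: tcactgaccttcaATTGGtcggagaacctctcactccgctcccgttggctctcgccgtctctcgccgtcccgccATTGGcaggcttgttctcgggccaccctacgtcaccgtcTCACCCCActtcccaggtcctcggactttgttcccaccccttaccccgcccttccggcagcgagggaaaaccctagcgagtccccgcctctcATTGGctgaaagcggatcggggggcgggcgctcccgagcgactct

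A promoter was given by RefSeq for 6 of the 7 genes, Sqle being the other. In the 250 bases before the start, the sterol core stood in 2 of the 6, 137 bases before the RefSeq start of Hmgcs1 and 162 bases before the RefSeq start of Srebf2. The latter is at chr15 position 82147269, inside the gene as the coordinates of the data list it. Of all 32851 promoters, 3.67% held it in a window of this length. The NF-Y box stood in all 6 windows, with 3 copies before Hmgcs1, and in 33.8% of all promoters. Among the other synthesis enzymes, 12 had a promoter, of which 1 held the sterol core and 11 the NF-Y box. A match describes letters in this window, and binding was not measured.

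In untreated cells, Srebf2 had the highest level of the 7 genes and Lss the lowest. Means of the 3 Ctrl libraries were 67.0 ± 2.24 FPKM (SD, as in all that follow, n = 3) for Srebf2, 51.1 ± 2.27 for Sqle, 48.5 ± 2.64 for Insig1, and 42.1 ± 4.35 for Hmgcs1. They were 30.4 ± 1.65 FPKM for Cyp51, 19.5 ± 1.62 for Idi1 and 9.84 ± 0.164 for Lss. FPKM is scaled to the listed gene length, so the order of the genes depends on these lengths. The listed length was 10787 bases for Lss and 3505 bases for Idi1. Over the 9 libraries, Lss had 1708 to 2187 fragments and Idi1 had 657 to 1621. The range of Sqle over the Ctrl libraries overlapped that of Insig1, and the range of Insig1 overlapped that of Hmgcs1. Within each Ctrl library, however, Sqle was above Insig1 and Insig1 above Hmgcs1. The ranges of all other neighbours in the order did not overlap. In Ep2, Insig1 stood next to Srebf2, with means of 72.0 ± 13.1 and 74.6 ± 0.475 FPKM, and the libraries of both genes overlapped.

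**Figure D1:**
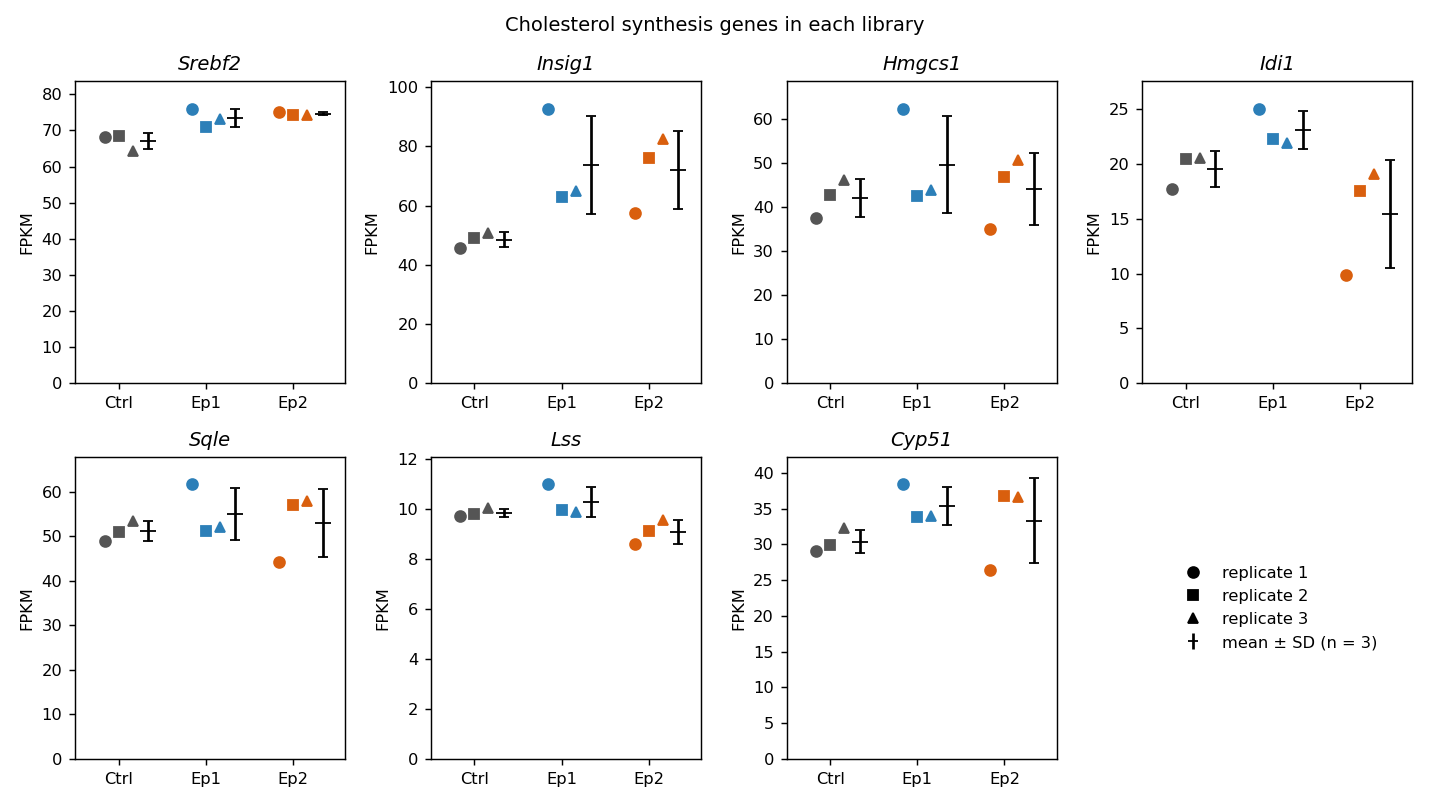
Level in FPKM (vertical axes from 0, a scale of its own for each gene) of the 7 genes in each library of Ctrl, Ep1 and Ep2, with marker shapes for the replicate number and a bar for the mean ± SD of 3 libraries. Ep1 replicate 1 is the highest Ep1 library in all 7 panels, and Ep2 replicate 1 is the lowest Ep2 library in every panel except Srebf2.

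Srebf2 (ENSMUSG00000022463, chr15:82147181-82205379, plus strand) encodes the precursor of SREBP2. Its Ctrl libraries were at 68.2, 68.3 and 64.4 FPKM. The Ep1 libraries were at 76.1, 71.0 and 73.2 FPKM. The Ep2 libraries were at 75.2, 74.4 and 74.4 FPKM. Every treated library was above every Ctrl library, and the Ep2 libraries were the tightest of any group of the 7 genes, with a coefficient of variation of 0.637%. The log2 fold change on the log2(FPKM + 1) scale, used for all fold changes here, was 0.13 in Ep1 (95% interval 0.04 to 0.22), which did not pass (limma, adjusted p = 0.0668). In Ep2, Srebf2 rose by 0.15 (interval 0.06 to 0.25; limma, adjusted p = 0.0098), or 1.11-fold in mean FPKM. This small rise passed under all 7 other settings and without any single library. The difference between the doses was 0.02 (interval −0.07 to 0.12; limma, adjusted p = 0.657).

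Insig1 (ENSMUSG00000045294, chr5:28071363-28078662, plus strand) encodes the protein that retains the SCAP and SREBP complex in the endoplasmic reticulum. It was at 45.6, 49.1 and 50.8 FPKM in Ctrl. It was at 92.7, 63.0 and 65.0 FPKM in Ep1, and at 57.3, 76.1 and 82.6 FPKM in Ep2. All treated libraries lay above all Ctrl libraries, and the libraries of both doses were interleaved. Means were 1.52-fold above Ctrl in Ep1 and 1.48-fold in Ep2, the largest differences from Ctrl among the 7 genes in each comparison. In Ep1, the log2 fold change was 0.57 with an SE of 0.173 (interval 0.17 to 0.97), and it did not pass (limma, adjusted p = 0.0705). In Ep2, Insig1 rose by 0.55 on the log2 scale (interval 0.15 to 0.95; limma, adjusted p = 0.0283). The Ep2 call did not hold under 3 other settings, among them no filter on low values (limma, adjusted p = 0.0553) and a test of the recovered fragments with voom (adjusted p = 0.0522). It also did not hold without Ctrl replicate 1 (0.0822), Ctrl replicate 2 (0.0638), Ep2 replicate 2 (0.0831) or Ep2 replicate 3 (0.101), with log2 fold changes of 0.44 to 0.56 in those 4 leave-outs. The doses differed by −0.03 (interval −0.42 to 0.37; limma, adjusted p = 0.921), which leaves room for a difference in either direction.

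Hmgcs1 (ENSMUSG00000093930, chr13:119690379-119708260, plus strand) encodes HMG-CoA synthase of the cytosol, which feeds the mevalonate pathway. It was at 37.5, 42.7 and 46.1 FPKM in Ctrl. It was at 62.4, 42.6 and 44.0 FPKM in Ep1, and at 35.0, 46.8 and 50.6 FPKM in Ep2. The groups overlapped, and Ep1 replicate 1 stood alone above all other libraries. Its log2 fold change was 0.22 in Ep1 (interval −0.20 to 0.63; limma, adjusted p = 0.46) and 0.05 in Ep2 (interval −0.36 to 0.47; limma, adjusted p = 0.819).

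Idi1 (ENSMUSG00000058258, chr13:8885501-8892451, plus strand) encodes isopentenyl-diphosphate isomerase, which balances the isoprenoid units from which squalene is built. Its levels were 17.7, 20.4 and 20.5 FPKM in Ctrl. They were 25.05, 22.2 and 21.9 FPKM in Ep1. They were 9.83, 17.5 and 19.04 FPKM in Ep2. All Ep1 libraries were above all Ctrl libraries, and Ep2 replicate 1 was far below every other library, which gave Ep2 a coefficient of variation of 31.9%, the widest of any group of the 7 genes. Against Ctrl, the log2 fold change was 0.23 in Ep1 (interval −0.26 to 0.72; limma, adjusted p = 0.51) and −0.37 in Ep2 (interval −0.86 to 0.12; limma, adjusted p = 0.181). The SE in Ep1 was 0.211 because Ep2 shares the estimate of the spread, and in a fit of Ep1 and Ctrl alone it was 0.0727 (limma, adjusted p = 0.0669). Between the doses, all Ep2 libraries lay below all Ep1 libraries, and the difference of −0.60 (interval −1.09 to −0.11) did not pass (limma, adjusted p = 0.0518). Without Ep2 replicate 1 it was −0.32 and passed (limma, adjusted p = 0.0116), and without Ep2 replicate 3 it was −0.76 and passed as well (limma, adjusted p = 0.028).

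Sqle (ENSMUSG00000022351, chr15:59315077-59331192, plus strand) encodes squalene epoxidase, the oxygen-dependent step that commits squalene to sterols. Its levels were 49.0, 50.9 and 53.5 FPKM in Ctrl. They were 61.7, 51.2 and 52.2 FPKM in Ep1, and 44.1, 57.0 and 57.9 FPKM in Ep2. The groups overlapped, with Ep1 replicate 1 the highest of all libraries and Ep2 replicate 1 the lowest. On the log2 scale, the fold change was 0.10 in Ep1 (interval −0.14 to 0.34; limma, adjusted p = 0.578) and 0.04 in Ep2 (interval −0.20 to 0.28; limma, adjusted p = 0.772).

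Lss (ENSMUSG00000033105, chr10:76531588-76557138, plus strand) encodes lanosterol synthase, which closes the sterol rings. It was at 9.72, 9.77 and 10.02 FPKM in Ctrl. It was at 10.98, 9.97 and 9.87 FPKM in Ep1, and at 8.59, 9.09 and 9.54 FPKM in Ep2. The Ep2 libraries lay below all Ctrl and all Ep1 libraries. Relative to Ctrl, Lss had a log2 fold change of 0.06 in Ep1 (interval −0.07 to 0.18; limma, adjusted p = 0.537) and −0.11 in Ep2 (interval −0.23 to 0.02; limma, adjusted p = 0.129). Lss fell by 0.16 from Ep1 to Ep2 (interval −0.28 to −0.04; limma, adjusted p = 0.0371). This call did not hold under 5 of the other settings, among them centring each library on its median (limma, adjusted p = 0.142), nor without Ctrl replicate 1 (0.0538), Ctrl replicate 2 (0.0554), Ep1 replicate 1 (0.124), Ep1 replicate 2 (0.0567), Ep2 replicate 1 (0.0903) or Ep2 replicate 2 (0.0769).

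Cyp51 (ENSMUSG00000001467, chr5:4081145-4104746, minus strand) encodes lanosterol 14-alpha-demethylase, the cytochrome P450 that acts next. Its levels were 29.1, 29.9 and 32.2 FPKM in Ctrl. They were 38.4, 33.9 and 33.9 FPKM in Ep1, and 26.4, 36.8 and 36.7 FPKM in Ep2. All Ep1 libraries exceeded all Ctrl libraries, while Ep2 replicate 1 lay below them and the other Ep2 libraries above. The log2 fold change was 0.21 in Ep1 (interval −0.06 to 0.48; limma, adjusted p = 0.269) and 0.11 in Ep2 (interval −0.16 to 0.38; limma, adjusted p = 0.451). Without Ep2 replicate 1, Cyp51 passed in Ep2 at 0.27 (limma, adjusted p = 0.00777) and also in Ep1 (limma, adjusted p = 0.0371), since all libraries share 1 estimate of the spread. Without that library, Srebf2 (limma, adjusted p = 0.0496) and Insig1 (limma, adjusted p = 0.0407) passed in Ep1 too.

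**Figure D2:**
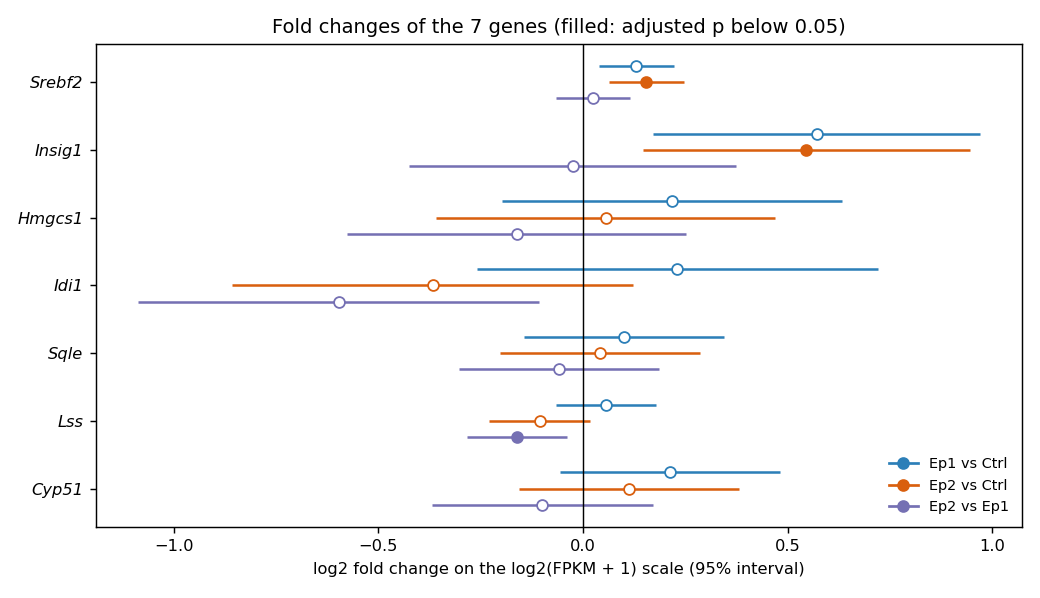
Log2 fold change of each of the 7 genes on the log2(FPKM + 1) scale (horizontal axis) for Ep1 vs Ctrl, Ep2 vs Ctrl and Ep2 vs Ep1, with lines for the 95% interval and filled points for an adjusted p below 0.05. The filled points are Srebf2 at 0.15 and Insig1 at 0.55 for Ep2 vs Ctrl, and Lss at −0.16 for Ep2 vs Ep1.

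Counted over the 7 genes, none passed in Ep1 with limma, where 11.3% of all tested genes did. At an unadjusted p below 0.05 there were 2, Srebf2 and Insig1, and the voom test also called 0. All 7 fold changes in Ep1 were above 0, as were those of 5582 of the 11727 tested genes. The 7 genes varied together between libraries, as described below, so they do not count as 7 separate observations. Their median was 0.21, against −0.01 over all tested genes, and 0.10 without Ep1 replicate 1. In 4 of the 7 (Srebf2, Insig1, Idi1 and Cyp51) the Ep1 libraries were all above the Ctrl libraries, which 20.8% of all tested genes showed, and in 0 of the 7 all below, against 20.5%. In Ep2, 2 of the 7 rose and 0 fell with limma, against 23.9% and 29.3% of all tested genes, so the share of the 7 that passed in either direction was below the 53.2% of all tested genes. At an unadjusted p below 0.05 the counts were also 2 and 0, and the voom test called 1 and 0. The median of 0.05, against −0.03 over all tested genes, had no settled sign. It was 0.17 without Ep2 replicate 1, 0.12 without Ctrl replicate 3, 0.01 without Ctrl replicate 1 or Ep2 replicate 2, and −0.03 without Ep2 replicate 3. Libraries did not overlap upward for 2 genes and downward for 1, Lss, against 27% and 32.7% of all tested genes. Between the doses, 1 of the 7 fell and 0 rose with limma, against 25.2% and 18.8% of all tested genes, which makes 44% in either direction. At an unadjusted p below 0.05 there were 2 lower (Idi1 and Lss) and 0 higher, and the voom test called 0. For Idi1 and Lss all Ep2 libraries were below all Ep1 libraries, and for 0 of the 7 above, against 30.3% and 24.1% of all tested genes. None of the 7 passed with a fold change of more than 0.6 on the log2 scale, as 0.793% of all tested genes did in Ep1, 9.17% in Ep2 and 5.9% between the doses. Both comparisons with Ctrl share the same 3 Ctrl libraries.

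The members also varied together between libraries of the same group. Ep1 replicate 1 was the highest Ep1 library for 7 of 7 genes, as it was for 35.6% of all tested genes. Ep2 replicate 1 was the lowest Ep2 library for 6 of 7 genes, against 39.2% of all tested genes, with Srebf2 as the exception. This library also stood apart over the whole series. The chi-square per degree of freedom between its fragments and those of Ep2 replicates 2 and 3 was 10.06 and 15.25. Other pairs within a group had 2.81 to 5.66. Ctrl replicate 1 was the lowest Ctrl library for 6 of 7 and Ctrl replicate 3 the highest for 6 of 7, against 32.6% and 34.2% of all tested genes. Spread within a group was wide for Hmgcs1 and Insig1 in Ep1, with coefficients of variation of 22.2% and 22.6%, where the median of all tested genes was 5.22%. In Ep2 the median of all tested genes was 7.9%, and 6 of the 7 genes ranged from 5.19% for Lss to 31.9% for Idi1. Mitochondrial transcripts took 4.95% to 5.18% of summed FPKM in Ctrl, 5.26% to 5.55% in Ep1, and 5.35% to 6.65% in Ep2, where replicate 1 had the lowest share. Every treated library was above every Ctrl library, and the part of this shift in the results was not tested.

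Likeness of pattern was measured as the Pearson correlation, over the 9 libraries, of log2(FPKM + 1) with the mean standardised profile of the 7 genes. It is a description with no test, since the libraries share groups and each of the 7 genes contributes to the profile. Hmgcs1 (0.961), Cyp51 (0.949) and Sqle (0.944) followed the profile closely, followed by Insig1 at 0.844, Idi1 at 0.736 and Lss at 0.694. Srebf2 followed it least, at 0.418. Among named protein-coding genes outside the 7, the closest were Cmtr2 (0.977), an mRNA cap methyltransferase, and Lipg (0.972), the endothelial lipase, which acts on lipoprotein phospholipids. Msmo1 (0.937) and Hsd17b7 (0.926), both enzymes that act in the steps removing methyl groups from the sterol, and Cacul1 (0.916) came next. Lipg was at 8.27, 8.86 and 9.34 FPKM in Ctrl. It was at 12.8, 9.59 and 10.26 FPKM in Ep1, and at 8.13, 9.64 and 10.4 FPKM in Ep2. As with Hmgcs1 and Sqle, its highest library was Ep1 replicate 1 and its lowest Ep2 replicate 1, and it did not pass in Ep1 (limma, adjusted p = 0.141) or Ep2 (limma, adjusted p = 0.582).

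Of 15 further synthesis enzymes, 10 fell in Ep2 and 0 rose with limma, against 29.3% and 23.9% of all tested genes, and the median was −0.39. Counts at an unadjusted p below 0.05 were the same, 10 and 0, and so were those of the voom test. Without Ep2 replicate 1, 10 fell and 2 rose, Hsd17b7 at 0.43 (limma, adjusted p = 0.00352) and Sc5d at 0.16 (limma, adjusted p = 0.0321). Every Ep2 library was below every Ctrl library for 10 of the 15, against 32.7% of all tested genes. The 7 genes and this list were set apart with earlier results known, so the contrast between them is a description. In Ep1, 1 of the 15 fell and 0 rose with limma, against 4.97% and 6.32% of all tested genes. At an unadjusted p below 0.05 there were 3 lower and 1 higher, and the voom test called 3 lower and 0 higher. Without Ep2 replicate 1, there were 3 lower and 2 higher, and 0 without any one of Ctrl replicate 2, Ctrl replicate 3 or the Ep1 replicates.

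Among the enzymes of the mevalonate stretch, Mvk, mevalonate kinase, fell most. It was at 10.1, 10.5 and 11.2 FPKM in Ctrl, at 8.46, 9.12 and 7.75 FPKM in Ep1, and at 4.06, 6.27 and 5.22 FPKM in Ep2. The log2 fold change in Ep2 was −0.92 (SE 0.117; limma, adjusted p = 0.000187). Its Ep1 libraries also lay below all Ctrl libraries, but the Ep1 difference of −0.30 did not pass (limma, adjusted p = 0.129). Mvd, the decarboxylase that makes isopentenyl diphosphate, went from 24.6 FPKM in Ctrl to 14.5 FPKM in Ep2, a fold change of −0.73 (limma, adjusted p = 0.00018). Pmvk, phosphomevalonate kinase, fell by 0.69 in Ep2 (limma, adjusted p = 3.39e-05). Acat2, which joins acetyl-CoA units ahead of Hmgcs1, fell by 0.51 (limma, adjusted p = 0.0111). Hmgcs1 and Idi1, which stand before and after these kinases and Mvd, did not pass.

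Among the squalene and sterol steps, Fdft1, squalene synthase, fell by 0.39 in Ep2 (limma, adjusted p = 0.0154), while Sqle, the next enzyme, did not pass. Lbr, a sterol reductase that also anchors chromatin at the nuclear lamina, was at 31.0 FPKM in Ctrl, 34.5 FPKM in Ep1 and 25.5 FPKM in Ep2. It fell in Ep2 by 0.27 (limma, adjusted p = 0.000647), and its Ep1 difference of 0.15 did not pass (limma, adjusted p = 0.0558). Nsdhl, which acts in removing the methyl groups at carbon 4 of the sterol, fell by 0.52 (limma, adjusted p = 0.0262), a call that was lost without Ctrl replicate 1 (0.0792) or Ctrl replicate 3 (0.063) and under 3 other settings. Ebp, the sterol isomerase, fell by 0.31 (limma, adjusted p = 0.000637). Dhcr7, the reductase that makes cholesterol from 7-dehydrocholesterol, fell by 0.55 (limma, adjusted p = 0.000135). It was also the enzyme that fell in Ep1, by 0.28 (limma, adjusted p = 0.0308), and without any one of Ctrl replicate 2, Ctrl replicate 3 or the 3 Ep1 replicates its adjusted p was 0.0705 to 0.121. Msmo1, at 0.09, and Hsd17b7, at 0.26, did not pass in Ep2. Fdps, Tm7sf2 and Sc5d did not pass either, with fold changes between −0.13 and 0.00. Fdps and Tm7sf2 were low, with Ctrl means of 2.70 and 2.43 FPKM, where the pseudocount of 1 shrinks the fold change. From Ep1 to Ep2, 8 of the 15 fell and 0 rose with limma (median −0.27), against 25.2% and 18.8% of all tested genes. Pmvk at −0.63 and Mvk at −0.62 were the largest, and at an unadjusted p below 0.05 there were 9 lower and 0 higher.

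**Figure D3:**
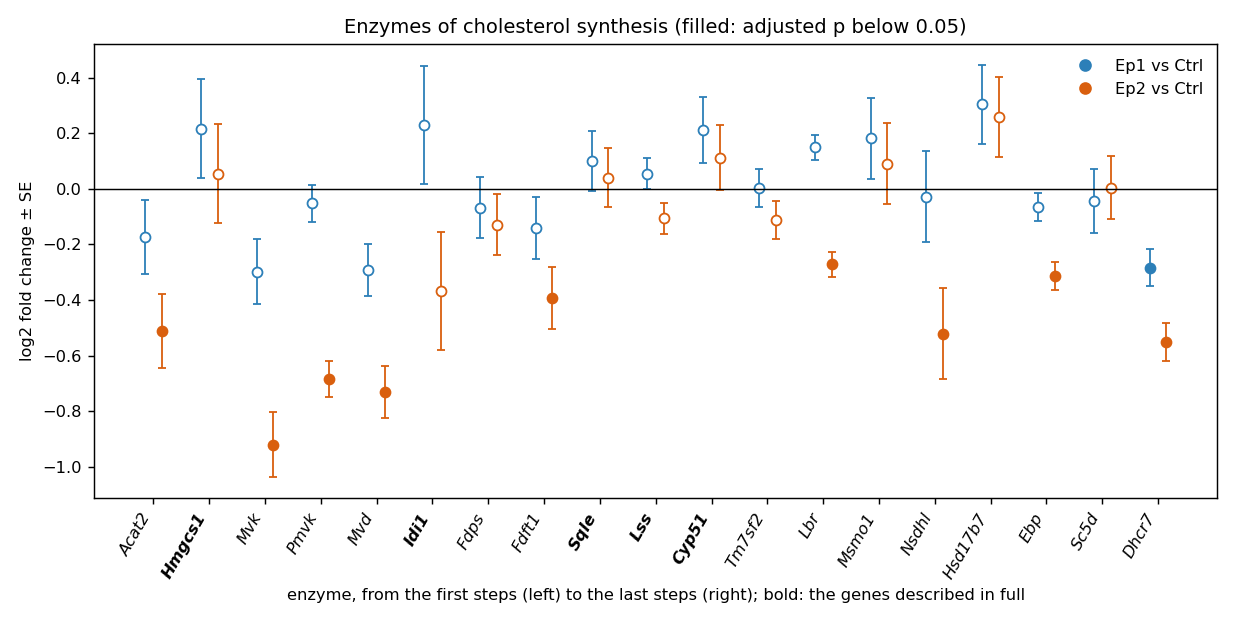
Log2 fold change ± SE (vertical axis) of enzymes in the order of the pathway, from the first steps at the left to the last at the right, for Ep1 vs Ctrl and Ep2 vs Ctrl; filled points have an adjusted p below 0.05 and bold names mark the genes described library by library. The filled Ep2 points are all below 0, from Lbr at −0.27 to Mvk at −0.92, and none of them belongs to a bold name.

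Of 13 genes that control SREBP, 4 rose and 6 fell in Ep2 with limma (median −0.13), against 23.9% and 29.3% of all tested genes. In Ep1, 1 rose and 1 fell, against 6.32% and 4.97%. Without Ctrl replicate 1 or Ctrl replicate 2, 2 rose and 4 fell in Ep2. Rnf145, a ubiquitin ligase that acts on SCAP, was at 22.9, 23.6 and 22.2 FPKM in Ctrl, 16.1, 16.3 and 16.6 FPKM in Ep1, and 15.9, 15.4 and 15.1 FPKM in Ep2. It fell by 0.46 in Ep1 (limma, adjusted p = 0.00213) and by 0.54 in Ep2 (limma, adjusted p = 1.15e-05). Scap, the escort that INSIG1 retains, fell by 0.43 in Ep2 (limma, adjusted p = 0.000136), from 8.04 to 5.72 FPKM. Srebf2 and Insig1 thus rose in Ep2 while Scap and Rnf145 fell.

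Genes of uptake and movement of cholesterol included the largest rise in these lists. Of 13 listed, 12 were tested, of which 6 rose and 3 fell in Ep2 with limma (median 0.09), against 23.9% and 29.3% of all tested genes. Without Ctrl replicate 1, 5 rose and 1 fell. In Ep1, 0 rose and 2 fell with limma, against 6.32% and 4.97%. At an unadjusted p below 0.05 the Ep1 counts were 1 and 3, and the voom test called 0 and 3. Vldlr, the receptor of very low density lipoprotein, was at 6.09, 6.48 and 6.32 FPKM in Ctrl. It was at 6.89, 5.45 and 5.99 FPKM in Ep1, and at 15.4, 12.8 and 13.8 FPKM in Ep2. It rose by 1.04 in Ep2 (limma, adjusted p = 1.43e-05), and its Ep1 libraries overlapped Ctrl. Lipa, the lysosomal acid lipase that frees cholesterol from its esters, rose by 0.38 in Ep2 (limma, adjusted p = 0.00272). Lrp1, another lipoprotein receptor, fell by 0.39 in Ep2 (limma, adjusted p = 0.000226) and by 0.28 in Ep1 (limma, adjusted p = 0.0131), the latter lost without Ctrl replicate 1 (0.0527), Ctrl replicate 2 (0.0689) or Ep1 replicate 3 (0.0615). Gramd1a, a sterol carrier between membranes, fell by 0.33 in Ep1 (limma, adjusted p = 0.0197), and without any one of Ctrl replicate 1, Ctrl replicate 2 or the 3 Ep1 replicates its adjusted p was 0.0527 to 0.0845.

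Storage, export and oxysterol genes were little covered, with 5 of 12 tested. Of these, 3 rose and 0 fell in Ep2 with limma, which were Nceh1 at 0.27, Soat1 at 0.19 and Mylip at 0.17, against 23.9% and 29.3% of all tested genes. Without Ctrl replicate 1 or Ep2 replicate 3, 1 rose. In Ep1, 0 of these 5 passed with limma, where 11.3% of all tested genes did. At an unadjusted p below 0.05 there were 3 and 0 in Ep2, and 1 higher and 1 lower in Ep1, and the voom test, with 8 of the genes, called 6 and 0 in Ep2 and 0 in Ep1. Soat1, which esterifies cholesterol for storage, had an adjusted p of 0.00291 (limma) in Ep2. Of 13 genes listed as fatty acid targets of SREBP, 3 rose and 8 fell in Ep2 with limma (median −0.37). The first count is near the 23.9% and the second above the 29.3% of all tested genes. Some genes of this list act outside fatty acid synthesis, so its counts and median are not of fatty acid genes alone. Fasn, fatty acid synthase, was at 119, 121 and 110.2 FPKM in Ctrl and at 55.5, 77.2 and 80.0 FPKM in Ep2, a fold change of −0.73 (limma, adjusted p = 0.00113). Fads2 fell by 0.72 (limma, adjusted p = 5.27e-05) and Acaca by 0.61 (limma, adjusted p = 0.0017). In Ep1, 0 of the 13 passed with limma, where 11.3% of all tested genes did. At an unadjusted p below 0.05 there were 1 higher and 1 lower, as in the voom test. On the branch that leaves the pathway for other isoprenoids, 4 of 9 genes fell and 0 rose in Ep2 with limma (median −0.07), against 29.3% and 23.9% of all tested genes. With each library centred on its median 2 fell and 3 rose, and 2 fell without Ctrl replicate 2 or Ep2 replicate 3, so the list has no settled direction. Its largest change was in Coq2, of ubiquinone synthesis, which fell by 0.72 (limma, adjusted p = 2.84e-05). In Ep1, 0 of the 9 passed with limma, where 11.3% of all tested genes did. At an unadjusted p below 0.05 there were 1 higher and 1 lower, and the voom test called 1 higher.

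**Figure D4:**
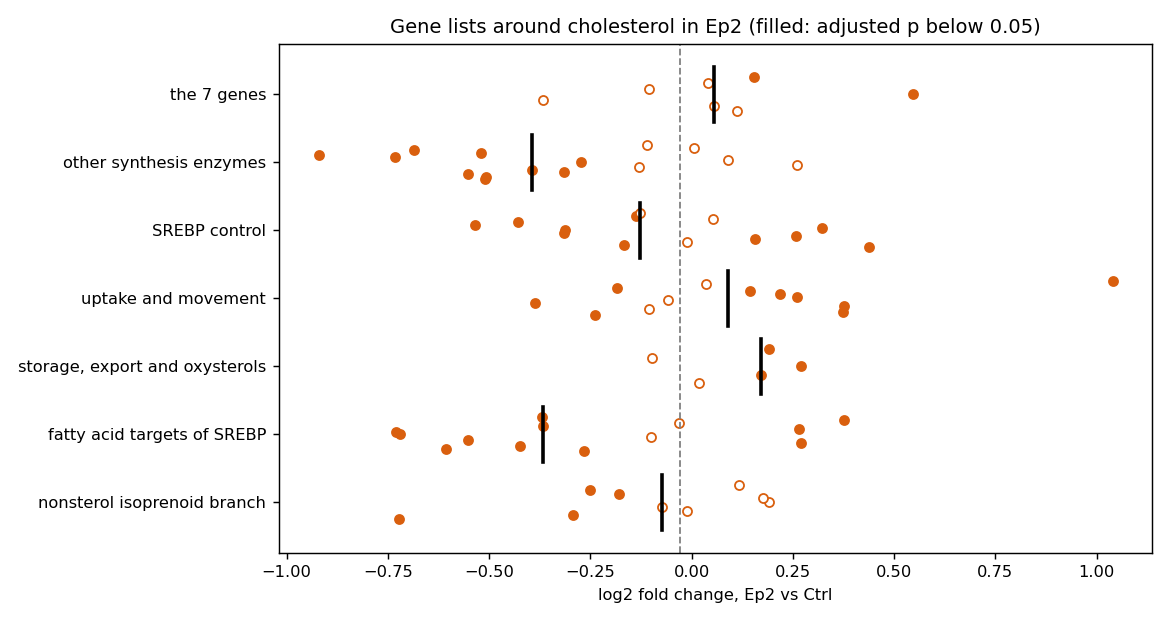
Log2 fold change in Ep2 vs Ctrl (horizontal axis) of each tested gene of the 7 lists, one row per list, with a black bar at the median of the list, a dashed line at the median of all tested genes (−0.03), and filled points for an adjusted p below 0.05. The 7 genes centre at 0.05, the other synthesis enzymes at −0.39 and the list named fatty acid targets of SREBP at −0.37. The point farthest to the right is Vldlr at 1.04.

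Some of the 7 genes overlap other listed genes, and strand-specific counting is not stated. Cyp51 shares 166 bases with Akap9 on the other strand, which was at most 1.51 FPKM. Hmgcs1 overlaps Gm48342 (at most 0.257 FPKM) and Lss overlaps 4930483K19Rik (at most 0.306 FPKM), both on the other strand. Srebf2 holds Gm49502 (at most 0.646 FPKM) and Mir33, whose 69 bases were listed at 0, on its own strand. These levels were low beside those of the 7 genes, whose lowest value was 8.59 FPKM, in Lss.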

How the data were processed

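The authors sequenced total RNA of cells labelled as B.END3 and deposited 1 FPKM value per gene and library, already scaled to gene length and library size. Their methods name GRCm39, the submitters' processing notes name mm8 and Bowtie 0.12.2, and the listed coordinates overlapped those of RefSeq GRCm38.p6 for 99.9% of 37624 genes matched by symbol, so coordinates are given on GRCm38. The counting tool and the strand setting are not given in the sources used here. The single-library tables held the values of the joint table. FPKM times gene length gave whole fragments to within 0.05 for 100% of values, which sets the depth quoted, and the spread between libraries exceeded counting noise.

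Groups follow the library labels. The test was limma 3.58.1 (R 4.3.3) on log2(FPKM + 1) of the 11727 genes with at least 1 FPKM in at least 3 libraries, with all 9 libraries in 1 fit without covariates, a robust eBayes step with an intensity trend, and p-values adjusted by Benjamini-Hochberg over all tested genes in each comparison; a gene passed at an adjusted p below 0.05. The pseudocount of 1 shrinks the fold change of low genes. The other settings were median centring, no filter, a filter at 5 FPKM, a pseudocount of 0.1, a replicate block, only the groups compared, voom on the recovered fragments (14112 genes), and each library left out. Tables and figures were made with Python 3.11.15, pandas 2.3.3 and matplotlib 3.10.9.

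The members and lists were chosen with earlier results of these data known. Named are the 7 genes, other synthesis enzymes, up to 3 genes of each other list with the largest change among those that passed against Ctrl, the 5 closest in pattern and overlapping genes. Some genes of the pathway are not reported here, though they may enter the counts over lists.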

Additional observations from a re-analysis of the deposited data

How the results depend on the processing

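No value that passed changed direction. Of the 7 genes, 2 rose in Ep2, and 1 (Srebf2) with no filter on low values, with the replicate block and with voom; leaving out single libraries gave 1 to 3, and Insig1 ranged over adjusted p values (limma) of 0.0137 to 0.0625 in the other settings. In Ep1, leaving out single libraries gave 0 to 3 genes higher. The 1 gene lower in Ep2 than in Ep1, Lss, became 0 with median centring, no filter, the replicate block, only the groups compared and voom, and 0 to 2 without single libraries. Other synthesis enzymes that passed in Ep1 numbered 1, against 0 with no filter, 2 with a filter at 5 FPKM, 6 with only the groups compared, 3 with voom, and 0 to 5 without single libraries; in Ep2 their 10 became 9 to 10, or 9 to 12 without single libraries, the 12 being 10 lower and 2 higher without Ep2 replicate 1. The cause of these shifts was not tested. Over all genes, 1324 passed in Ep1, against 396 with no filter, 2162 with only the groups compared, 1995 with voom and 192 without Ctrl replicate 2. Of the genes that passed between the doses, 42.8% were higher in Ep2, against 55.5% with median centring. Replicate numbers did not pair the libraries (correlations of same-numbered deviations from −0.0565 to 0.0744), so the block is only an alternative: it gave 1051, 6110 and 4983 calls in Ep1, Ep2 and between the doses, and Insig1 in Ep2 an adjusted p (limma) of 0.0625.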
